A study of Arabidopsis thaliana with 12 samples.

Results

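Z-ISO, CHLM, SIRB, NdhS, CRR21 and NTRC are nuclear genes whose proteins make plastid pigments and cofactors or serve electron flow in the chloroplast. They were chosen by name and function: each is the only gene that the array's annotation gives for 1 probe. They are 6 of the 691 genes with a probe of their own on an array of 3439 probes. All 6 were matched by locus to a RefSeq gene table, none had a further probe, and none was named on a probe shared with other genes. Stem material was compared with leaves of wild-type Arabidopsis thaliana, ecotype Columbia 0, in total RNA on 12 arrays, 6 of stem and 6 of leaf, each tissue numbered 1 to 6. The labels give no treatment, plant age or leaf position, and nothing in them ties a sample to a plant of its own. The p-values therefore cover the spread between these 12 samples alone, part or all of which may be technical. In a piece of tissue, a smaller share of green cells and less RNA of a gene per cell cannot be told apart.

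Chloroplast pigments come from 2 routes. Carotenoids, which protect the photosystems from excess light and are the source of abscisic acid, are built from phytoene by desaturases and isomerases, and Z-ISO is the isomerase that acts on 15-cis-zeta-carotene between the desaturation steps. Chlorophyll, haem and siroheme are tetrapyrroles that share their early intermediates. CHLM, the magnesium-protoporphyrin IX methyltransferase, works on the magnesium branch that leads to chlorophyll. SIRB, sirohydrochlorin ferrochelatase, inserts iron in the last step to siroheme, the cofactor of nitrite reductase and sulfite reductase.

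The electron-flow genes serve the thylakoid NDH complex and the stromal thiol system. NDH passes electrons from ferredoxin to plastoquinone around photosystem I. NdhS is the nuclear-encoded subunit through which the complex binds ferredoxin. CRR21 is a pentatricopeptide repeat protein needed for editing of the plastid ndhD transcript, which encodes another NDH subunit. NTRC joins an NADPH-dependent thioredoxin reductase and a thioredoxin in 1 protein, and it passes electrons to 2-Cys peroxiredoxins and to other plastid proteins, enzymes of chlorophyll synthesis among them.

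Values were deposited on a linear scale from 0 to 100, with 479 to 536 probes at 0 in stem samples and 658 to 785 in leaf samples. Within a tissue, samples 1 and 2, samples 3 and 4, and samples 5 and 6 were much more alike than any others; they are called neighbours here. Over the 1870 probes above 0 in all 12 samples, their rank correlation was 0.966 to 0.983 in stem and 0.858 to 0.887 in leaf, against 0.820 to 0.905 and 0.681 to 0.808 for other samples of the same tissue. The labels do not mention this grouping. Leaf samples 1 and 2 were closer to stem (0.704 to 0.818) than leaf samples 3 to 6 were (0.583 to 0.685), so results that rest on them are given with and without them. Of 16 marker genes of stem xylem and fibres none had a probe of its own, and of 15 leaf mesophyll markers 2 did: LHB1B2, a light-harvesting protein, and PRK, phosphoribulokinase. Their differences between stem and leaf were -0.21 (log2, adjusted p = 0.38) and -0.096 (adjusted p = 0.69), so neither marker passed the threshold between the tissues.

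The 6 genes differed among themselves in the sign of their average difference. Stem values averaged higher for 4 of them (Z-ISO, CRR21, NdhS and CHLM) and lower for 2 (SIRB and NTRC). With limma, 0 of the 6 passed an adjusted p under 0.05, against 24.2% of the 2657 probes tested (643 probes, 374 higher and 269 lower in stem). At an unadjusted p under 0.05 it was 3 of 6, Z-ISO, CRR21 and SIRB, against 36.3% of all tested probes. When the number shared by a stem and a leaf sample entered the fit as a block, Z-ISO and NdhS passed as higher in stem, against 26.6% of all probes. In the deposited values, not normalized, Z-ISO and CRR21 passed, against 31.4%. When neighbours were averaged and counted as 1 sample, 46 of 2544 probes (1.81%) passed, and Z-ISO (adjusted p = 0.25) and NdhS (adjusted p = 0.49) were not among them. The normalized ranges of stem and leaf overlapped for all 5 genes with 12 values above 0, and they did not overlap for 16.4% of such probes. All tested probes had a median difference of 0.13 (log2, stem minus leaf, quantile-normalized values), and every difference below is on that scale unless the deposited scale is named.

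**Figure D1:**
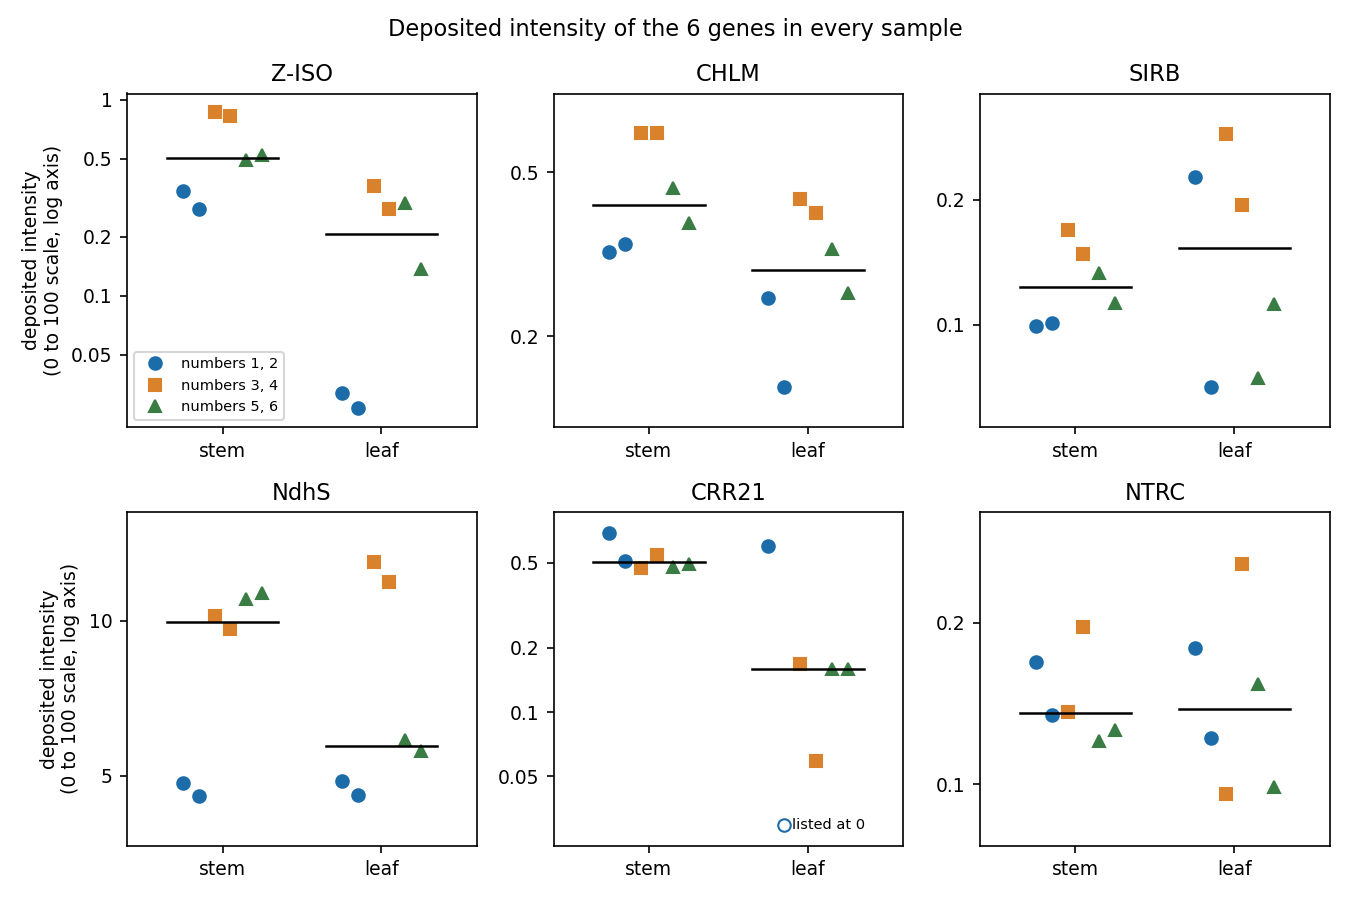
Deposited intensity (0 to 100 scale, log axis) of the 6 genes in the 6 stem and 6 leaf samples, 1 point a sample, with the median of each tissue as a bar and marker shape and colour for the pair of numbers. The ranges of the tissues overlap for every gene; the leaf points of Z-ISO numbered 1 and 2 lie at 0.0320 and 0.0266, below all others, and 1 leaf point of CRR21 is listed at 0 and drawn open at the bottom.

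Z-ISO, the carotenoid isomerase, averaged 2.94-fold higher in stem over all 12 samples, the largest difference of the 6 in that fit. Without leaf samples 1 and 2 the differences of CRR21 (1.49 on the log2 scale), SIRB (-0.88) and NTRC (-0.64) were larger in size than that of Z-ISO (0.61). Its deposited intensity was 0.277 at the lowest, 0.507 at the median and 0.863 at the highest in stem, against 0.0266, 0.207 and 0.362 in leaf. Stem was above leaf in 6 of 6 numbers, on the deposited and on the normalized scale, although the ranges overlapped: stem samples 1 and 2 (0.341 and 0.277) lay below leaf sample 3 (0.362). Of the probes above 0 in all 12 samples, 18.2% were higher in stem in 6 of 6 numbers on the normalized scale. The normalized means were -1.16 ± 0.35 in stem and -2.71 ± 1.505 in leaf (log2, SD, n = 6 each). The difference was 1.55 ± 0.56 (SE, 95% interval 0.36 to 2.74, limma adjusted p = 0.055), and as a paired difference, the number being a block, it was 1.55 ± 0.42 (adjusted p = 0.026).

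The spread in leaf came mostly from 2 samples. Leaf samples 1 and 2 had a Z-ISO intensity of 0.0320 and 0.0266, and leaf samples 3 to 6 had 0.362, 0.276, 0.296 and 0.137. The stem minus leaf difference of Z-ISO was thus 3.06 within numbers 1 and 2, against 0.97 within numbers 3 and 4 and 0.64 within numbers 5 and 6. Without the leaf samples 1 and 2 the difference was 0.61 ± 0.26 (adjusted p = 0.092), and without all samples numbered 1 and 2 it was 0.80 ± 0.26 (adjusted p = 0.038). Stem stayed the higher tissue, by a smaller margin, and 33.9% of all probes passed in the fit without the samples numbered 1 and 2. Z-ISO was dim in part of the leaf samples: 3 of 6 leaf values, those numbered 1, 2 and 6, lay below the median of the values above 0 on their own array, and no stem value did.

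CHLM, on the chlorophyll branch, differed least. Its deposited intensity was 0.320, 0.417 and 0.621 (lowest, median, highest) in stem, against 0.151, 0.290 and 0.431 in leaf. On this scale stem was higher in 6 of 6 numbers, as were 30.3% of the probes above 0 in all 12 samples. After normalization the excess was gone: the means were -1.42 ± 0.11 in stem and -1.57 ± 0.43 in leaf (log2, SD, n = 6 each), and stem was higher in 3 of 6 numbers. The difference was 0.15 ± 0.23 (SE, adjusted p = 0.67), with a 95% interval of -0.34 to 0.64, which leaves room for a change of up to 0.64 on the log2 scale. In the deposited values the difference of CHLM was 0.63 and the median difference of all tested probes 0.62, so CHLM lay at 0.00057 from the middle of the array.

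The small difference of CHLM moved with leaf samples 1 and 2 too. It was 0.60 within numbers 1 and 2, 0.030 within numbers 3 and 4 and -0.17 within numbers 5 and 6, and it was -0.088 ± 0.18 without leaf samples 1 and 2 (adjusted p = 0.74). Leaf samples 2 and 1 were the lowest of their tissue for CHLM (0.151 and 0.247) as they were for Z-ISO. In stem the 6 normalized CHLM values lay within -1.60 to -1.31, the narrowest stem range of the 6 genes.

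SIRB, the last enzyme of siroheme synthesis, averaged lower in stem. Its deposited intensity was 0.0993, 0.123 and 0.169 (lowest, median, highest) in stem, against 0.0708, 0.153 and 0.288 in leaf. The leaf values enclosed the stem values: leaf samples 1, 3 and 4 (0.226, 0.288 and 0.194) were above every stem sample, and leaf samples 2 and 5 (0.0708 and 0.0744) were below every stem sample. The normalized means were -3.38 ± 0.34 in stem and -2.54 ± 0.64 in leaf (log2, SD, n = 6 each). The difference was -0.84 ± 0.34 (SE, 95% interval -1.57 to -0.11, adjusted p = 0.091), or 1.79-fold higher in leaf. On the normalized scale stem was lower in 5 of 6 numbers, though only at -0.033 in number 5. On the deposited scale stem was higher in 3 of 6 numbers. The share of all probes with such counts was not taken. The block for the number gave an adjusted p of 0.12.

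The leaf values of SIRB disagreed even between neighbouring numbers, which otherwise were the most alike. Leaf samples 1 and 2 differed by 1.53 on the log2 scale, more than the tissue difference itself, and the other neighbours in leaf differed by 0.66 and 0.58. In stem neighbours differed by 0.018 to 0.30. Within numbers 1 and 2 the stem minus leaf difference of SIRB was -0.45, against -1.60 within numbers 3 and 4 and -0.47 within numbers 5 and 6. SIRB was a dim probe, below the median of the values above 0 on 6 of 6 stem arrays and on 4 of 6 leaf arrays. In the deposited values its difference was -0.17 ± 0.41 (adjusted p = 0.80), while that of all tested probes had a median of 0.62.

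**Figure D2:**
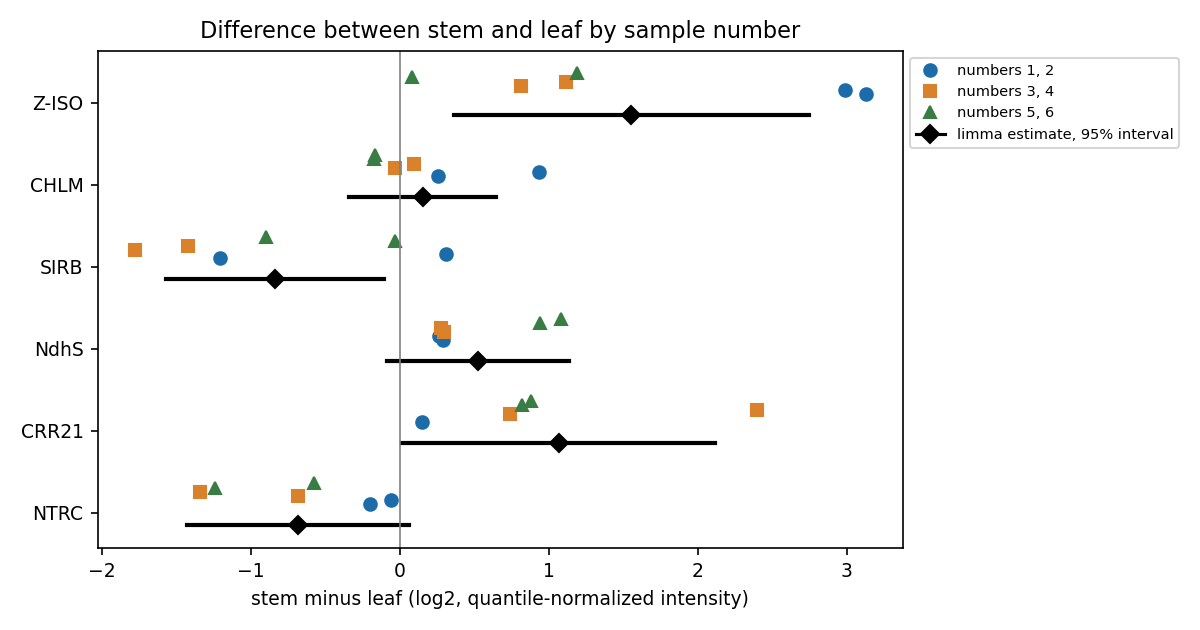
Stem minus leaf (log2, quantile-normalized intensity) for each gene, with 1 coloured point for each number that has both values, and the limma estimate with its 95% interval in black below. All 6 points of Z-ISO and NdhS and all 5 points of CRR21 are above 0, all 6 of NTRC are below 0, and the 2 points of Z-ISO near 3 are numbers 1 and 2.

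NdhS, the ferredoxin-binding subunit of NDH, had a difference that depended on the scaling. Its deposited intensity was 4.57, 9.95 and 11.3 (lowest, median, highest) in stem, against 4.59, 5.72 and 13.0 in leaf. The values followed the pairs of numbers more than the tissue: samples 1 and 2 had 4.85 and 4.57 in stem and 4.88 and 4.59 in leaf, samples 3 and 4 had 10.2 and 9.66 in stem and 13.0 and 11.9 in leaf, and samples 5 and 6 had 11.01 and 11.3 in stem and 5.86 and 5.57 in leaf. Only numbers 5 and 6 showed a higher deposited value in stem. On the normalized scale stem was higher in 6 of 6 numbers, as were 18.2% of the probes above 0 in all 12 samples. The means were 3.18 ± 0.60 in stem and 2.65 ± 0.48 in leaf (log2, SD, n = 6 each).

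The normalized difference of NdhS was 0.53 ± 0.29 (SE, 95% interval -0.085 to 1.14, adjusted p = 0.20). The block for the number gave 0.53 ± 0.17 (adjusted p = 0.047). When arrays were centred on their medians instead, NdhS was lower in stem, at -0.35 ± 0.26 (adjusted p = 0.35). The direction of NdhS thus changed with the scaling. Neighbouring numbers agreed closely for this bright probe, differing by at most 0.124 on the log2 scale in all 6 pairs of stem or leaf samples. Without leaf samples 1 and 2 the difference of NdhS was 0.26 ± 0.29 (adjusted p = 0.51), and without all samples numbered 1 and 2 it was 0.65 ± 0.17 (adjusted p = 0.016). In the latter fit 33.9% of all probes passed. Within numbers 1 and 2 and numbers 3 and 4 the stem minus leaf difference was 0.28 and 0.29, against 1.011 within numbers 5 and 6.

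CRR21, the editing factor of the ndhD transcript, was even in stem and scattered in leaf in the deposited values. Its deposited intensity was 0.475, 0.503 and 0.693 (lowest, median, highest) in stem, against 0, 0.159 and 0.598 in leaf. Leaf sample 1 (0.598) lay among the stem values, leaf samples 3, 5 and 6 lay at 0.167, 0.158 and 0.159, leaf sample 4 lay at 0.0591 and leaf sample 2 was listed at 0. The neighbours leaf 1 and leaf 2 were thus at the opposite ends of the tissue's range. What an exact 0 stands for is not given in the sources used here, and the fit leaves that sample out.

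On the normalized scale CRR21 averaged -1.18 ± 0.51 in stem (n = 6) and -2.25 ± 1.23 in leaf (n = 5; log2, SD). Stem was higher in 5 of the 5 numbers with both values, from 0.15 in number 1 to 2.40 in number 4. The share of all probes with such a count was not taken. Averaged within pairs, where leaf 2 has no value, the stem minus leaf difference was -0.072 within numbers 1 and 2, against 1.57 within numbers 3 and 4 and 0.85 within numbers 5 and 6, and it was 0.78 with neighbours averaged (adjusted p = 0.51). The difference was 1.07 ± 0.49 (SE, 95% interval 0.015 to 2.12, adjusted p = 0.13), a 2.09-fold higher mean in stem, and the block for the number gave 0.997 ± 0.34 (adjusted p = 0.062). It was 2.68 ± 1.64 (adjusted p = 0.29) with zeros set to the lowest value above 0 of their array. In the deposited values the difference of CRR21 was 1.62 ± 0.45 (adjusted p = 0.017), and relative to the median of all tested probes it was 0.995, against 0.94 after normalization. Without leaf samples 1 and 2 the normalized difference of CRR21 was 1.49 ± 0.40 (adjusted p = 0.013), against 35.1% of all probes called in that fit. Leaf sample 2, the zero, was already left out of the main fit. For CRR21 this setting thus drops only leaf sample 1, the highest leaf value (0.598), and it was chosen after seeing the data.

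NTRC, the NADPH-dependent thioredoxin reductase, hardly differed in the deposited values. They were 0.120, 0.136 and 0.197 (lowest, median, highest) in stem, against 0.0961, 0.138 and 0.258 in leaf, and stem was higher in 3 of 6 numbers. The leaf range enclosed the stem range. On the normalized scale stem was lower in 6 of 6 numbers, as were 16.6% of the probes above 0 in all 12 samples, with means of -3.19 ± 0.58 in stem and -2.51 ± 0.50 in leaf (log2, SD, n = 6 each). The difference was -0.68 ± 0.35 (SE, 95% interval -1.43 to 0.059, adjusted p = 0.17), or 1.61-fold higher in leaf, and the adjusted p was 0.12 with the number as a block.

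The normalized difference of NTRC was small within numbers 1 and 2, at -0.13, against -1.015 within numbers 3 and 4 and -0.91 within numbers 5 and 6. In the deposited values it was 0.028 ± 0.33 (adjusted p = 0.96), which is 0.60 below the median of all tested probes. Like SIRB, NTRC was dim, below the median of the values above 0 on 6 of 6 stem arrays and 4 of 6 leaf arrays. Its neighbouring leaf samples 3 and 4 (0.0961 and 0.258) were the lowest and the highest of their tissue. A gap of 1.297 on the log2 scale thus separated samples of 1 tissue and neighbouring numbers, more than the difference between the tissues.

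**Figure D3:**
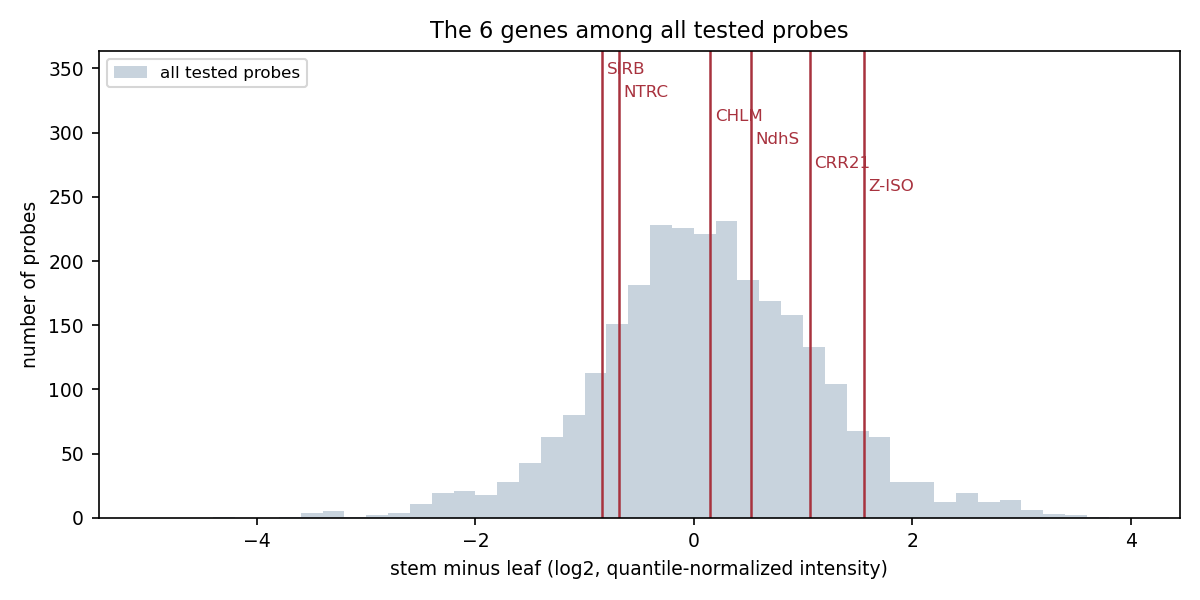
Histogram of the stem minus leaf difference (log2, quantile-normalized intensity) of the 2657 tested probes, with a line for each of the 6 genes. Z-ISO at 1.55 and SIRB at -0.84 are the outermost of the 6, and CHLM at 0.15 lies beside the median of all probes, 0.13.

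Set among all tested probes, the 6 genes were not extreme. Z-ISO exceeded 87.9% of the probes in the size of its difference, CRR21 72.6%, SIRB 62.2%, NTRC 53.3%, NdhS 43.0% and CHLM 12.4%. Leaf values were more spread than stem values for 4 of the 6 (Z-ISO, CHLM, SIRB and CRR21), as they were for 72.4% of the probes above 0 in all 12 samples. NdhS and NTRC had the larger standard deviation in stem.

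**Figure D4:**
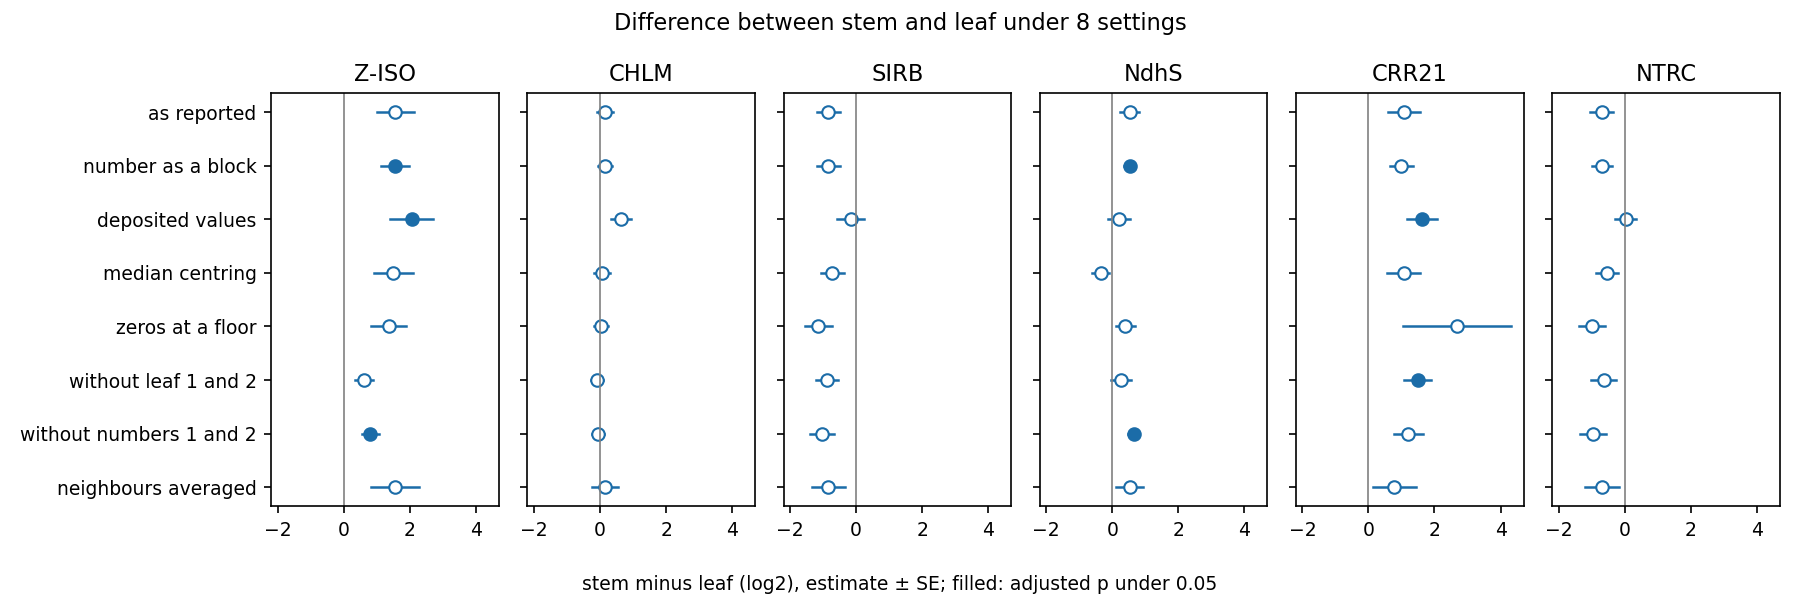
Stem minus leaf (log2, estimate ± SE) of the 6 genes under 8 settings, with filled circles where the adjusted p was under 0.05. Z-ISO and CRR21 stay above 0 and SIRB stays below 0 in each setting drawn, whereas NdhS turns to -0.35 with median centring and NTRC to 0.028 in the deposited values. CHLM turns to -0.088 without leaf samples 1 and 2 and to -0.070 without numbers 1 and 2.

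Most probes had the higher deposited value in stem, and the differences of the 6 genes varied with the scaling of the arrays. Relative to the median of all tested probes, Z-ISO differed by 1.43 after quantile normalization, 1.43 in the deposited values and 1.43 with median centring. SIRB differed by -0.97, -0.79 and -0.79 in the same order, CRR21 by 0.94, 0.995 and 1.008, and NTRC by -0.81, -0.60 and -0.59. CHLM differed by at most 0.024 from that median in all 3. NdhS alone of the 6 changed sign, at 0.40, -0.41 and -0.41.

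Few other genes of these routes could be measured. Of 158 listed genes of tetrapyrrole and carotenoid metabolism, NDH and cyclic electron flow, plastid RNA editing and the thioredoxin system, 13 were named alone on a probe and 9 of these were tested, the 6 genes included. At an adjusted p under 0.05, 0 of the 9 passed as higher in stem and 1 as lower, against 374 and 269 of all 2657 tested probes. The median difference was 0.22 over the 9 and 0.13 over all tested probes. AT2G04700, from the list of the thioredoxin system, was the 1 that passed: it averaged -2.14 ± 0.21 in stem and -1.07 ± 0.44 in leaf (log2, SD, n = 6 each), and its stem minus leaf value was -1.08 ± 0.24 (SE, adjusted p = 0.0058). NTRC, the other tested gene of that list, differed by -0.68 and did not pass.

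In the tetrapyrrole list 4 of 47 genes were tested. HEMA3, a glutamyl-tRNA reductase gene of the first committed step, differed by 0.73 ± 0.35 (SE, adjusted p = 0.14), with -0.96 ± 0.39 in stem and -1.69 ± 0.81 in leaf (log2, SD, n = 6 each). AT1G74470, the geranylgeranyl reductase that supplies the chlorophyll side chain, differed by 0.22 ± 0.21 (adjusted p = 0.47). With CHLM and SIRB, 0 of the 4 passed in either direction. Z-ISO was the only 1 of 34 carotenoid genes with a probe of its own. Among 25 NDH genes NdhN had a probe too, but it was listed at 0 in 3 stem and 3 leaf samples and was not tested. Of the editing factors OTP85 (4 stem and 4 leaf samples at 0) and AT3G22690 (all 12 at 0) were not tested, nor was AT3G52960 of the thioredoxin list (2 stem and 4 leaf samples at 0).

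The genes whose pattern over the samples was most like that of each gene were sought among the genes with a probe of their own and all 12 values, 354 for each gene and 355 for CRR21. The correlations of normalized log2 values are descriptions without a test, because the samples share their tissue and neighbouring numbers are alike. For NdhS the closest were AT4G18180 (Pearson r = 0.949, Spearman rho = 0.860, 12 samples) and AT3G06200 (r = 0.935, rho = 0.888), and r was 0.948 and 0.923 without the 2 samples farthest from the NdhS median. For CRR21 they were AT2G02590 (r = 0.905, rho = 0.782, 11 samples) and AT4G01310 (r = 0.895, rho = 0.891), and r was 0.710 and 0.894 without the 2 farthest samples.

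For Z-ISO and CHLM the samples farthest from the gene's median were leaf samples 1 and 2. The pattern of Z-ISO was closest to AT5G17840 (r = 0.941, rho = 0.671) and AT3G09080 (r = 0.882, rho = 0.671), and without those 2 samples r was 0.503 and 0.518. That of CHLM was closest to AT5G06790 (r = 0.882, rho = 0.762) and AT1G02020 (r = 0.869, rho = 0.566), and r was 0.647 and 0.347 without them. SIRB was closest to AT3G15140 (r = 0.773, rho = 0.762) and to AT2G04700 (r = 0.759, rho = 0.797), with r of 0.889 and 0.750 without leaf samples 1 and 3. Taken as deviations from the tissue means, the 2 correlations of SIRB were 0.528 and 0.484, and those of the other 5 genes lay between 0.717 and 0.958. NTRC was closest to AT1G15410 (r = 0.814, rho = 0.720) and AT5G53920 (r = 0.812, rho = 0.811), with r of 0.694 and 0.714 without stem samples 3 and 4. By Spearman rank not all named genes were among the closest: both genes of Z-ISO stood at place 23, AT2G02590 of CRR21 at 23.5 and AT1G02020 of CHLM at 18, and the other 8 stood between places 1 and 6.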

How the data were processed

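The authors deposited 1 table of array intensity, linear values from 0 to 100, for 3439 probes in 12 samples. Background correction, scaling and what a 0 means: not given in the sources used here. Sample tissues came from the titles. Gene names came from the array's annotation (692 probes with 1 gene, 870 with several, 1877 unnamed here) and were updated by gene ID through RefSeq's gene table (TAIR10.1), from which no coordinates were taken. Zeros were set to missing and intensities to log2, and the arrays, whose medians spanned 1.42, were quantile normalized. Probes with at least 4 values in each tissue were tested in limma 3.58.1 (R 4.3.3, statmod 1.5.0; lmFit, eBayes with trend and robust variance, two-sided), with Benjamini-Hochberg adjustment over all 2657 tested probes. The fit was tested on simulated data with samples drawn independently, which leaves out the likeness of neighbouring numbers. That test therefore cannot tell how the p-values hold for these samples. Figures used matplotlib 3.10.9. Precision is limited by how many independent samples there are, which may be fewer than the 12 arrays because neighbouring numbers were so alike.

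Stem and leaf samples of the same number deviated together (r = 0.17 to 0.26 over probes, against -0.17 to 0.15 for different numbers). By a rule of r over 0.1 in every same-numbered pair, the numbers could be taken to pair the samples. The main fit leaves this pairing out, and the fit with the number as a block is given only as an alternative. Stem 4 with leaf 3 (0.153) and stem 3 with leaf 4 (0.148) passed 0.1 too, so the rule does not single out the same number. The pairing comes from the data, and the labels give only the shared number. The block counts all 6 numbers as separate pairs, although neighbours are alike. The block for the number is given beside each result whose call it changes. The members, lists and alternatives were chosen with earlier results of these data known. The 6 genes, all listed genes with a probe of their own, and for each gene the 2 with the highest Pearson correlation were named. Sequences and promoter motifs of the genes were not analysed here.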

Additional observations from a re-analysis of the deposited data

How the results depend on the processing

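Over all probes 643 passed, against 46 with neighbouring numbers averaged (3 against 3) and 375 to 655 without 1 number in turn, the lower counts being those without number 3 (422), 4 (405), 5 (375) or 6 (392). Of the 6 genes 0 passed, against 2 in the deposited values, 2 with the number as a block (paired fit), 2 without numbers 1 and 2, 1 without leaf samples 1 and 2 (a setting chosen after seeing the data), 1 among probes with all 12 values, and 0 to 1 without 1 number in turn. Over all probes 565 of 1870 passed among those with all 12 values, 655 of 2457 without number 1 and 648 of 2460 without number 2. Z-ISO passed at 2.05 in the deposited values (adjusted p = 0.029), at 1.55 with the block and 1.55 over probes with all 12 values (adjusted p = 0.026 and 0.046), and at 0.80 without numbers 1 and 2. NdhS passed at 0.53 with the block and 0.65 without numbers 1 and 2 (adjusted p = 0.016), was 0.26 without leaf samples 1 and 2 (adjusted p = 0.51), and turned to -0.35 with median centring. CRR21 passed at 1.62 in the deposited values, 1.49 without leaf samples 1 and 2 and 1.33 without number 1 (adjusted p = 0.037). SIRB passed without number 2 (-1.07, adjusted p = 0.041). CHLM turned to -0.070 without numbers 1 and 2, -0.088 without leaf samples 1 and 2 and -0.0043 without number 2, and NTRC turned to 0.028 in the deposited values. Without 1 number in turn the differences ran from 1.24 to 1.85 for Z-ISO, -0.0043 to 0.22 for CHLM, -1.07 to -0.65 for SIRB, 0.41 to 0.58 for NdhS, 0.71 to 1.33 for CRR21 and -0.81 to -0.55 for NTRC. With neighbouring numbers averaged the adjusted p of the 6 lay between 0.25 and 0.85. Other causes of these changes were not tested; averaging leaves fewer samples and the stricter filter fewer probes. Each gene had 1 probe, so no other probe could be tried.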
